A study of Mus musculus with 9 samples.

Results

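The genes described here are 33 transcripts that type I interferons induce, taken by symbol from a list, and all 33 were present among the 39253 genes of the deposited table. Their RNA was measured in 9 libraries of CD4+ T cells from mice at day 9 of experimental autoimmune encephalomyelitis (EAE), in which an autoimmune attack on brain and spinal cord is provoked to model multiple sclerosis. Every group carried EAE, and the groups differed by genotype, wildtype (4 libraries, WT1 to WT4) or ERα KO (5 libraries, KO1 to KO5), where ERα is the estrogen receptor encoded by Esr1. Batch 1 held WT1, WT2, KO1, KO2 and KO3, and batch 2 held WT3, WT4, KO4 and KO5. The series title speaks of ERα in dendritic cells, and the labels give neither the cells in which the knockout acts nor the strain, age or sex of the mice, the organ sampled, or whether libraries came from single or pooled animals.

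Type I interferons are secreted proteins that bind the receptor formed by Ifnar1 and Ifnar2. Signalling from the receptor leads to a complex of transcription factors, with Irf9 among its parts, that binds the interferon-stimulated response element (ISRE) in promoters and switches on a shared set of antiviral genes. In T cells these transcripts are a standard readout of interferon exposure, and interferon beta is a treatment of multiple sclerosis. In whole-population RNA such as this, fewer cells carrying a transcript and less transcript per cell cannot be told apart.

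The promoters of the members were searched for the ISRE, and some of them carry its core. RefSeq promoter windows of build GRCm38.p6, 300 bases long, were found for 24 of the 33 members. The ISRE core (GAAA, any 2 bases, GAAA), searched on both strands with overlapping matches counted, lay in the windows of 11 of these 24 members (45.8%) and of 1079 of all 27025 genes with a window (3.99%). The 130 bases before the start site are printed for 3 members with a match and for Oasl2, the member with the clearest genotype difference below. Each runs 5′ to 3′ on the gene's strand, and capitals mark the matches.
Isg15 (chr4:156200819-156200948, minus strand): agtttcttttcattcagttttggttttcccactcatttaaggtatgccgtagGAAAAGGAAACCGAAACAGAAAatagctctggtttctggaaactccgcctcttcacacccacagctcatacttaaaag
Rsad2 (chr12:26456453-26456582, minus strand): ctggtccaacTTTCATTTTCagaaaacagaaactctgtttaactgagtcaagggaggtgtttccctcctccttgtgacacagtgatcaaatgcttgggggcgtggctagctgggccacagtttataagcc
Ifit1 (chr19:34640759-34640888, plus strand): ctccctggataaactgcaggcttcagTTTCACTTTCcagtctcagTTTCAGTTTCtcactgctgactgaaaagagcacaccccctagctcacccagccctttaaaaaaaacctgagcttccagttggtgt
Oasl2 (chr5:114896804-114896933, plus strand): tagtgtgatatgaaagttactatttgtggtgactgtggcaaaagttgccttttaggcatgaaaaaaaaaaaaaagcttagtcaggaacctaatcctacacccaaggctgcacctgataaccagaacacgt
Isg15 holds 3 overlapping matches, Ifit1 holds 2 and Rsad2 holds 1. For Oasl2 these letters are not in the window.

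The libraries differed in depth and make-up in ways that touch the members. Batch 1 libraries totalled 4926347 to 11296593 estimated counts, batch 2 libraries 45013017 to 69844721, and levels are given as CPM (a gene's counts scaled to a common library total). Esr1, the targeted gene, had 101 and 76 counts in WT3 and WT4 against 9 and 14 in KO4 and KO5. In batch 1 WT1 and WT2 had 4.87 and 16.2 CPM of Esr1, and KO1, KO2 and KO3 had 9.58, 6.31 and 13.0 CPM. There it does not separate the genotypes, so directions in batch 1 rest on the labels alone. The 1508 olfactory, vomeronasal and taste receptor genes, normally silent in T cells, took 0.0574% (WT1) to 0.255% (KO3) of counts in batch 1 and at most 0.0037% in batch 2. KO3 also stood apart from batch 1 by sex-linked transcripts, with Xist at 30.4 CPM and the Y-linked gene Ddx3y at 55.4 CPM, whereas the other 4 libraries had 1745 to 2680 CPM of Xist and 0 counts of Ddx3y. All 4 batch 2 libraries had Ddx3y at 93.6 to 107 CPM and Xist at or under 0.289 CPM. The 7 CD4 T cell markers found in the table summed to 3014 to 4435 CPM and none was at 0 in any library.

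Within batch 1, 1 wildtype library carried most of the difference between genotypes. WT1 had the highest CPM of the 5 libraries for 26 of the 33 members, and it was the highest library for 10.3% of all 24600 genes tested in that batch. WT2, the other wildtype library, was the lowest of the 5 for 8 members and the highest for 1. KO3 was the lowest for 17 members, compared with 14.1% of all genes. These shares of all genes depend on the scale, since by CPM KO3 was the highest library for 51.5% of all genes. On the scale of the count model (TMM), WT1 was the highest for 31 members and for 27% of all genes. KO3 was then the lowest for 23 members and for 26.9% of all genes. On that scale all 33 members were higher in WT1 than in WT2, against 44.3% of all genes. The median log2 ratio was 1.13 for the members and -0.19 for all genes. WT1 had the smallest share of silent receptor counts and KO3 the largest, and the part of this background in the member levels was not tested. Marker sums also differed within the wildtype pair. The 2 proliferation markers summed to 633 CPM in WT1 and 307 in WT2, with 390, 628 and 389 CPM in KO1, KO2 and KO3. The 7 neutrophil markers summed to 676 CPM in WT1 and 259 in WT2, with 914, 538 and 859 CPM in the knockout libraries. The monocyte and macrophage markers summed to 136 and 58.9 CPM in WT1 and WT2, and to 142, 189 and 118 CPM in KO1, KO2 and KO3. WT1 was the highest library for proliferation, just above KO2, and not for the neutrophil or the monocyte and macrophage sums. It was also the highest for the 7 CD4 T cell markers, at 3688 CPM. These summed to 3453 CPM in WT2 and to 3164, 3267 and 3014 CPM in KO1, KO2 and KO3. The red cell markers described below were highest in WT1 as well. The part of these cells was not tested.

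**Figure D1:**
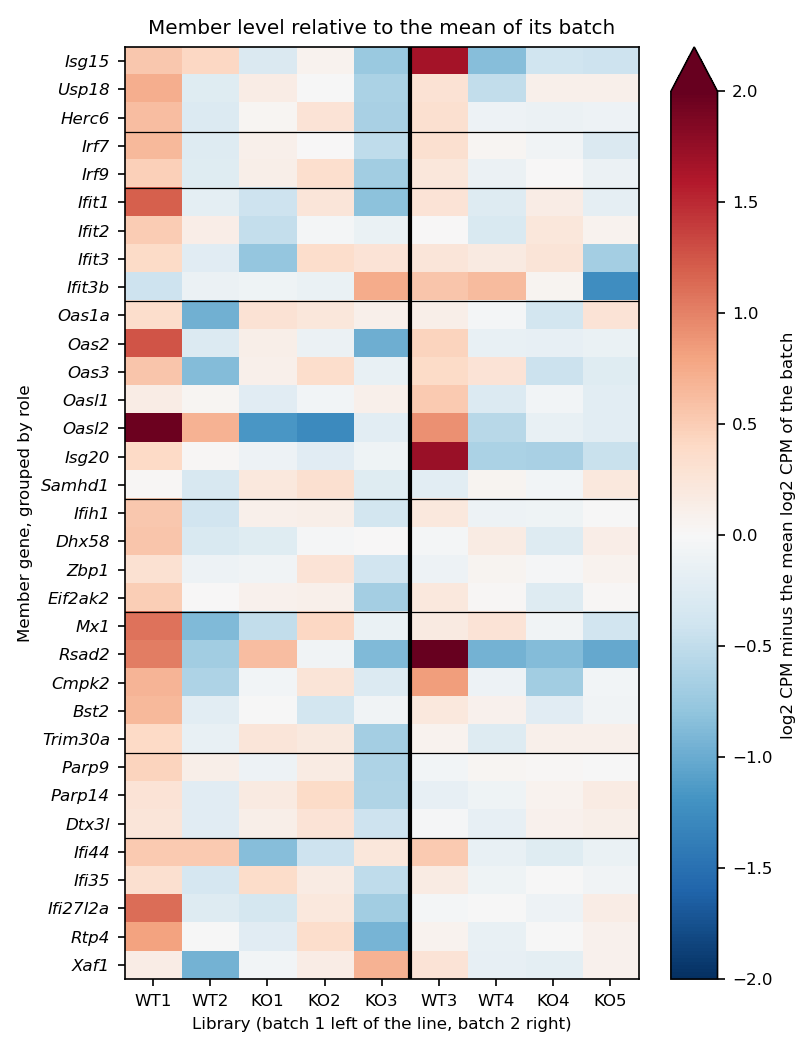
Level of each of the 33 members (rows, grouped by role) in each of the 9 libraries (columns), as log2 CPM minus the mean log2 CPM of the libraries of that batch; values above 2 share the darkest red. WT1 is above its batch mean for nearly all members, while in WT3 Rsad2, Isg20 and Isg15 stand out from the rest.

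The genotype comparison in batch 1 asks which members differ between knockout and wildtype CD4+ T cells sequenced together. Only Oasl2 passed the test. It fell in the knockout, 1 called member of 33, beside 0.126% of all genes called in either direction and 0.0528% called lower. Oasl2 encodes a 2′-5′ oligoadenylate synthetase-like protein of the OAS family, whose enzymes respond to double-stranded RNA. Its level was 41.7 and 17.5 CPM in WT1 and WT2 and 4.79, 4.48 and 9.27 CPM in KO1, KO2 and KO3. Both wildtype libraries lay above all 3 knockout libraries. The means were 29.6 ± 17.1 CPM (SD, n = 2) and 6.18 ± 2.68 CPM (SD, n = 3), and the log2 fold change was -2.55 ± 0.41 (SE; edgeR quasi-likelihood test, adjusted p = 0.000133). The call was lost with upper-quartile scaling (-2.36, edgeR adjusted p = 0.0895) and with a stricter low-count filter (-2.40, edgeR adjusted p = 0.285). The log2 fold change was -1.55 without WT1 and -3.17 without WT2. Its sign was negative in each of these fits.

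The other members of batch 1 leaned the same way without passing. Of the 33 members, 29 had a negative log2 fold change, compared with 46.2% of all tested genes, and the member median was -0.48 against 0.04 for all genes. With the size factors of DESeq2 these medians were -0.64 and -0.08, and with upper-quartile scaling -0.36 and 0.11, so the members remained below the other genes under each scaling. At an unadjusted p under 0.05 there were 4 members, all lower, beside 1.97% of all genes in either direction and 0.63% lower. They were Oasl2, Ifit1, Ifi27l2a and Oas2.

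The differences of Ifit1, Oas2 and Ifi27l2a rested on WT1, while WT2 also lay above the knockout libraries for Oasl2. Ifit1, a protein that binds viral RNA lacking a methylated cap, had 42.3 and 16.2 CPM in WT1 and WT2, and 13.97, 21.8 and 10.5 CPM in KO1, KO2 and KO3 (log2 fold change -1.10 ± 0.43, edgeR adjusted p = 1.00). WT2 lay within the knockout range. Oas2, a synthetase of the 2′-5′ oligoadenylates that activate RNase L, had 66.4 and 23.1 CPM in the wildtype pair, compared with 30.2, 25.6 and 14.2 CPM in the 3 knockout libraries (-1.12 ± 0.48, edgeR adjusted p = 1.00). Ifi27l2a, a small interferon-induced membrane protein, stood at 62.4 and 24.2 CPM against 22.6, 33.3 and 17.8 CPM (-0.999 ± 0.41, edgeR adjusted p = 1.00). For Oas2 and Ifi27l2a WT1 alone lay above all 3 knockout libraries. Without WT1 the fold changes of Ifit1, Oas2 and Ifi27l2a were 0.00, 0.10 and 0.09.

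Taken by role, the lean was found in most groups of batch 1. The ISG15 system, in which the ubiquitin-like protein Isg15 is attached to targets (by ligases such as Herc6) and removed (by Usp18), had 3 of 3 members negative with a median of -0.62. Isg15 had 10.6 CPM in WT1, 9.74 in WT2, and 5.99, 7.69 and 4.34 CPM in KO1, KO2 and KO3 (-0.87 ± 0.48, edgeR adjusted p = 1.00). Here WT1 and WT2 were alike and both above the knockout libraries, though the difference did not pass. The transcription factors Irf7, which amplifies interferon production, and Irf9, a DNA-binding part of the complex at the ISRE, were at -0.54 and -0.31. Irf9 had 86.9 and 53.0 CPM in the wildtype pair, with knockout values of 68.0, 79.0 and 38.5 CPM, and in batch 2 it had 92.4 and 72.6 CPM against 79.8 and 73.0 CPM, overlapping both times. The 5 antiviral effectors, among them the GTPase Mx1, the tetherin Bst2 and the radical enzyme Rsad2 (viperin), were all negative with a median of -0.58. The 4 sensors and kinases (Ifih1 and Dhx58, which bind double-stranded RNA, the Z-nucleic acid sensor Zbp1 and the kinase Eif2ak2, or PKR) were all negative with a median of -0.42. Of the 7 OAS family members and nucleases 5 were negative, and of the 4 IFIT genes 3 were. The ADP-ribosylation group, of Parp9, its partner Dtx3l, and Parp14, had the smallest median, -0.15. The 4 members with positive values in batch 1 were Xaf1 (0.35), Ifit3b (0.30), Oas1a (0.14) and the dNTP-degrading enzyme Samhd1 (0.12).

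Groups that did not overlap were few in batch 1. For 5 members (Isg15, Isg20, Ifit2, Oasl2 and Ifi44) every knockout library was below every wildtype library, which is 15.2% of the members beside 5.19% of all genes. For 0 members was every knockout library above by CPM, beside 10.9% of all genes. With TMM-scaled values Ifit3b lay above wildtype in every knockout library. Shares of all genes were counted by CPM only, here and in batch 2, so TMM-scaled overlaps have no such share beside them. Isg20, a 3′-5′ exonuclease, was at 38.8 and 29.8 CPM against 27.4, 25.1 and 27.6 CPM. Its WT2 value was close to the knockout values, and with TMM-scaled values the groups overlapped. Ifit2 was at 62.5 and 48.5 CPM against 31.8, 42.9 and 40.05 CPM (-0.71 ± 0.36). Ifi44 had 4.87 CPM in each wildtype library, and 1.86, 2.52 and 3.95 CPM in knockout libraries (-1.01 ± 0.63). Neither passed the test (edgeR adjusted p = 1.00 for each).

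**Figure D2:**
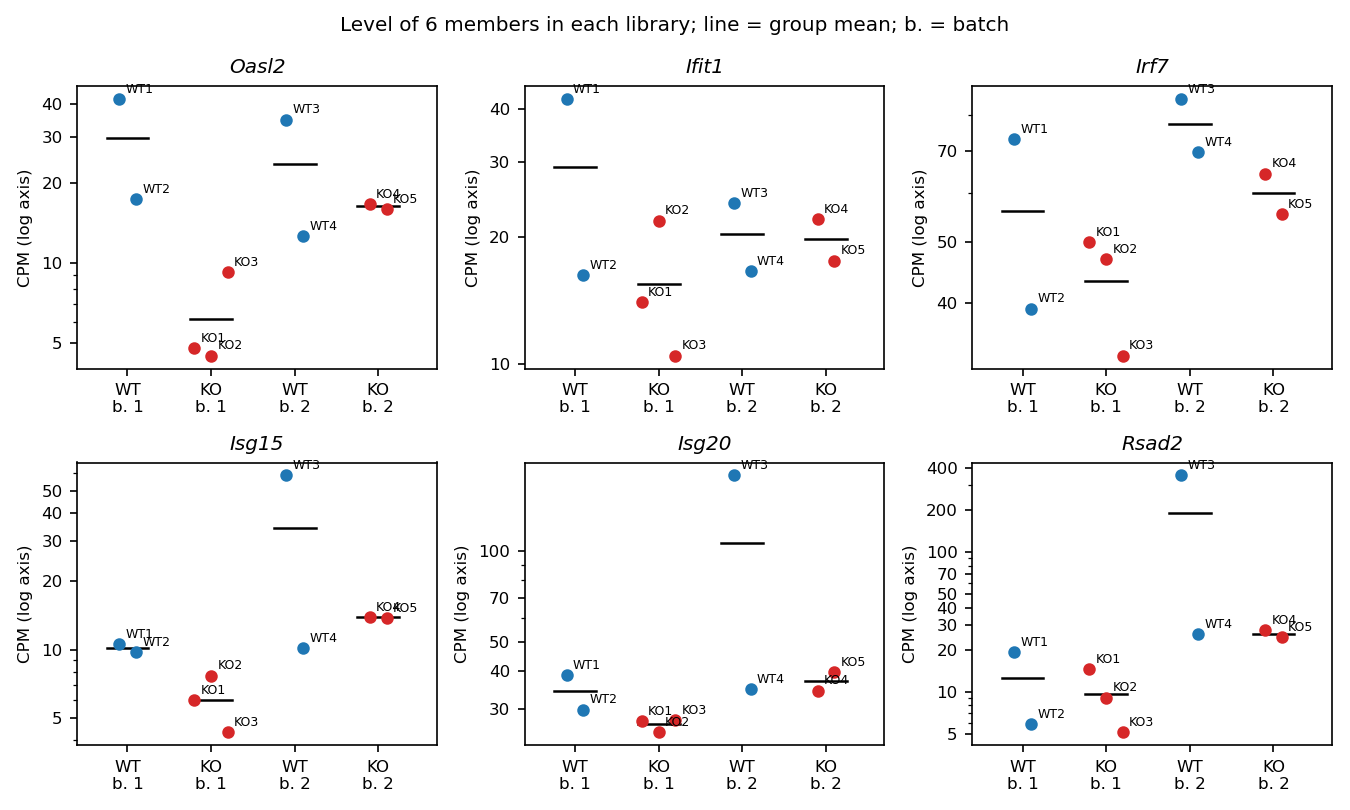
CPM (log axis) of 6 members in each library, by genotype and batch; points are libraries and lines are group means. In batch 1 the knockout libraries are all below both wildtype libraries for Oasl2, Isg15 and Isg20, and in batch 2 the wildtype means of Isg15, Isg20 and Rsad2 are set by WT3.

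Batch 2 asked the same question at greater depth, and 0 of the 33 members passed, as did 0 of 15910 genes (0%). DESeq2 called 1 member of 33, Oas3, and 329 of the 15910 genes in all. Oas3, another oligoadenylate synthetase, had 77.2 CPM in WT3, 71.4 in WT4, 43.7 in KO4 and 49.995 in KO5. The groups did not overlap and each pair was close. The log2 fold change was -0.66 ± 0.13 (edgeR adjusted p = 0.618, DESeq2 adjusted p = 0.00979). In batch 1 Oas3 did not differ in this way. Its wildtype libraries, at 53.2 and 19.9 CPM, lay on either side of the knockout libraries, at 39.0, 46.0 and 32.7 CPM (-0.10 ± 0.40), and the batch difference was not called (interaction -0.71 ± 0.50, edgeR adjusted p = 0.752).

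The members as a group lay closer to the other genes in batch 2. There were 23 members with a negative log2 fold change, compared with 52.2% of all genes, and the median was -0.12 against -0.02. By role, the antiviral effectors had 4 of 5 members negative with a median of -0.44, and the OAS family and nucleases 6 of 7 with a median of -0.33. The ADP-ribosylation group had 0 of 3 negative and a median of 0.19. At an unadjusted p under 0.05 there were 2 members, Oas3 and Parp14, beside 7.77% of all genes. Oas3 alone of these was lower, beside 4.97% of all genes. Groups did not overlap for 6 members with the knockout lower (18.2%, beside 20.5% of all genes) and for 4 with the knockout higher (12.1%, beside 19.6%), shares near those of other genes. The 6 lower members were Ifit3b, Mx1, Oas3, Irf7, Bst2 and Eif2ak2. With TMM-scaled values the groups overlapped for Eif2ak2.

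Irf7 and Bst2 had small negative differences in both batches, though without WT1 their batch 1 values were 0.21 and 0.08. In batch 2 Irf7 had 84.8 and 69.6 CPM in WT3 and WT4, and 64.4 and 55.5 CPM in KO4 and KO5 (-0.37 ± 0.16, edgeR adjusted p = 0.661). The batch 1 values overlapped, with 73.1 and 39.2 CPM for wildtype, and 50.01, 46.9 and 32.9 CPM for knockout. Bst2, which holds budding viruses at the cell surface, had 68.0 and 62.3 CPM against 49.997 and 55.8 CPM in batch 2 (-0.30 ± 0.13, edgeR adjusted p = 0.654). Its batch 1 values were 52.2 and 28.8 CPM against 33.1, 25.7 and 31.8 CPM (-0.63 ± 0.36), with WT2 inside the knockout range.

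The 4 members higher by CPM in both knockout libraries of batch 2 were Ifit2, Parp14, Trim30a and Dtx3l. With TMM-scaled values the groups overlapped for Trim30a, and Parp9 was higher in both knockout libraries. Parp14, a mono-ADP-ribosyltransferase, had 213 and 226 CPM in WT3 and WT4, and 252 and 269 CPM in KO4 and KO5 (0.25 ± 0.09, edgeR adjusted p = 0.628). In batch 1 it had 234 and 167 CPM for wildtype, and 220, 253 and 128 CPM for knockout (-0.13 ± 0.39), with overlap. Ifit2 was at 43.3 and 35.0 CPM against 50.8 and 45.5 CPM (0.30 ± 0.17, edgeR adjusted p = 0.719). In batch 1 Ifit2 had the opposite order, and its interaction was 0.87 ± 0.29 (unadjusted p = 0.0121, edgeR adjusted p = 0.526), so the change of sign between batches did not pass.

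In batch 2 the largest member differences came from WT3. Rsad2 was at 354 CPM in WT3, and at 25.8, 27.5 and 24.6 CPM in WT4, KO4 and KO5. Isg20 was at 178 CPM in WT3 and at 34.8, 34.5 and 39.8 CPM in the others. Isg15 was at 58.4 CPM in WT3 and at 10.2, 13.9 and 13.8 CPM. For each of the 3 genes WT4 was no higher than at least 1 of the knockout libraries. Their log2 fold changes, -2.90 ± 1.54, -1.55 ± 0.97 and -1.33 ± 0.96, had wide errors (edgeR adjusted p = 0.735, 0.759 and 0.781). Without WT3 the fold changes of Isg15 and Isg20 were 0.49 and 0.13. Rsad2 is named here because its value in WT3 stood apart.

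The excess in WT3 was wide but uneven across the members. By CPM WT3 was the highest of the 4 batch 2 libraries for 19 of the 33 members, and for 23.7% of all genes. On the scale of the count model 27 members (81.8%) were higher in WT3 than in WT4, against 51.4% of all genes. The median log2 ratio was 0.36 for the members and 0.01 for all genes. Rsad2 was 13.7 times, Isg15 5.76 times, Isg20 5.12 times and Oasl2 2.76 times its level in WT4. The ratio of WT3 to WT4 for the other 29 members ran from 0.833 to 1.92, with a median over all 33 of 1.22. Irf7 (1.22), Irf9 (1.27), Ifit1 (1.45), Mx1 (0.945) and Usp18 (1.73) were among these 29. In batch 1 the ratio of WT1 to WT2 was 3.90 for Mx1, 2.61 for Ifit1, 2.87 for Oas2 and 3.28 for Rsad2, and 1.09 for Isg15 and 1.30 for Isg20. Rsad2 and Oasl2 (2.39 in batch 1) were thus over 2-fold apart in both pairs, and Isg15 and Isg20 only in batch 2.

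Red cell transcripts were also high in WT3. The 5 erythroid markers (4 globin genes and Alas2, the first enzyme of haem synthesis in red cell precursors) summed to 1499 CPM in WT3 and to 88.3, 128 and 118 CPM in WT4, KO4 and KO5. Alas2 alone was at 434 CPM in WT3 and 17.0 CPM in WT4, and 0 of the 5 markers were at 0 in any batch 2 library. In batch 1 the sums were 48.6 (WT1), 45.8 (KO1), 14.5 (KO2), 3.04 (WT2) and 2.17 CPM (KO3), with Hba-a1 at 0 in WT1, WT2 and KO3, Hbb-bs at 0 in WT2 and Hba-a2 at 0 in KO3. In the same order of libraries Rsad2 had 19.3, 14.5, 9.07, 5.89 and 5.13 CPM. Members that did not stand out in WT3 fell in this order too, such as Irf7 (73.1, 50.01, 46.9, 39.2 and 32.9 CPM) and Usp18 (20.8, 13.8, 12.5, 10.6 and 8.09 CPM). In batch 2 WT4 had the lowest erythroid sum and more Rsad2 (25.8 CPM) than KO5 (24.6 CPM). A link between Rsad2 and red cell transcripts was not tested. The other members high in WT3 had another order in batch 1, where Isg15, Isg20 and Oasl2 were highest in WT1 and next in WT2. Ube2l6, the enzyme that passes Isg15 to its ligases, was no member and was looked at after its values were seen. It was at 161 CPM in WT3 and at 10.8, 16.3 and 12.7 CPM in WT4, KO4 and KO5.

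WT3 differed from WT4 in other lists too. The 7 neutrophil markers summed to 160 CPM in WT3, 17.2 in WT4, and 4.28 and 6.85 in KO4 and KO5, with Elane at 0 in WT4, Camp and Retnlg at 0 in KO4 and Ly6g at 0 in KO5. In batch 1 the neutrophil sums ran from 259 CPM (WT2) to 914 CPM (KO1). The proliferation markers Mki67 and Top2a summed to 2385 CPM in WT3, 1228 in WT4, and 527 and 841 in KO4 and KO5. The monocyte and macrophage markers summed to 87.8 and 121 CPM in WT3 and WT4, both above KO4 and KO5, at 64.0 and 69.6 CPM. The 7 CD4 T cell markers were alike in the wildtype pair, at 3852 and 4137 CPM in WT3 and WT4, with 4435 and 4420 CPM in KO4 and KO5. The 5 plasmacytoid dendritic cell markers, a cell type known for interferon production, summed to 8.2 to 16.2 CPM in batch 2 and 38.0 to 92.1 CPM in batch 1, with KO3 the highest. Most of the batch 1 sums was Tcf4, a gene other cells also express (30.9 of 38.0 CPM in WT1 and 80.1 of 92.1 CPM in KO3). Siglech, a defining marker, had 4.54 CPM in KO3 and 4.47 in WT2 and was at 0 in WT4, KO4 and KO5. The part of any of these cells in the member levels was not tested.

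**Figure D3:**
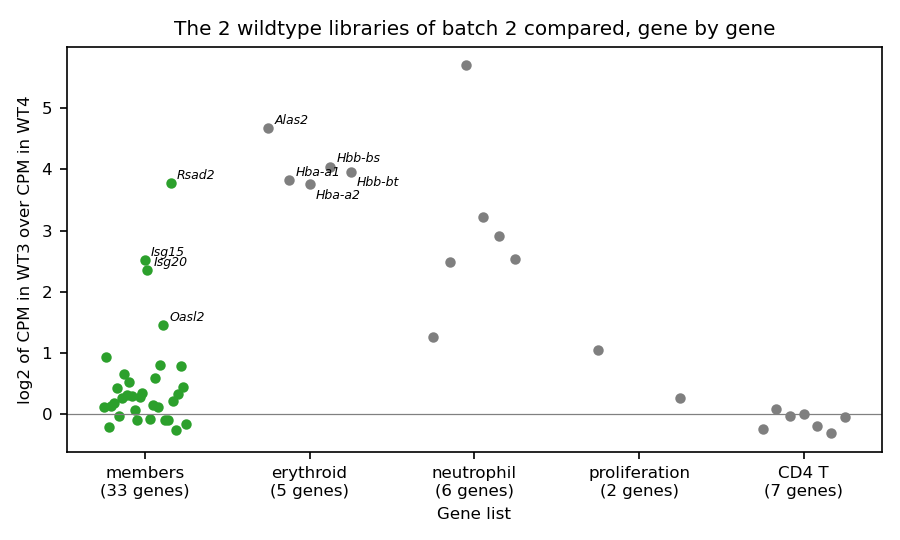
Log2 ratio of CPM in WT3 over CPM in WT4 for each member and for the genes of 4 marker lists (Elane, at 0 in WT4, is left out); each point is 1 gene. Rsad2, Isg15, Isg20 and Oasl2 lie above 1 while the other members reach at most 0.94, and the erythroid and neutrophil markers are high in WT3.

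Over both batches together, 0 of 33 members passed, beside 0.00451% of all 22197 genes (1 gene). Of the members 28 had a negative log2 fold change, beside 48.6% of all genes, and the median was -0.27 against 0.01. Without WT1 the member median was -0.06 with 21 negative, and the median of all genes was -0.07, so the members no longer lay below the other genes. Without WT2 the member median was -0.54 with 33 negative, against -0.05 for all genes. At an unadjusted p under 0.05 there were 3 members, all lower, beside 2.36% of all genes in either direction and 1.16% lower. They were Oasl2 (-1.51 ± 0.48), Isg15 (-1.06 ± 0.44) and Bst2 (-0.40 ± 0.17), each with an edgeR adjusted p of 1.00. DESeq2 called 0 members here, and the interaction test of batch and genotype called 0 of 33 as well. At an unadjusted p under 0.05 the interaction held 2 members, beside 8.36% of all genes. Both were positive (0 members were negative, beside 6.61% of all genes), and of all 33 members 12 had a negative interaction, beside 61.9% of all genes. The 2 members with an unadjusted p under 0.05 were Ifit2 and Oasl2. For Oasl2 the batch 2 levels were 34.8 CPM in WT3, 12.6 in WT4, 16.7 in KO4 and 16.0 in KO5 (-0.55 ± 0.53). Its interaction of 1.80 ± 0.74 did not pass (edgeR adjusted p = 0.591).

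The members did not keep 1 order from batch to batch. Between the 2 within-batch fits, which share no library, 20 members were negative in both and Samhd1 alone was positive in both. There were 9 members negative in batch 1 and positive in batch 2, among them Ifit2, Usp18, Rtp4, Trim30a and the 3 ADP-ribosylation genes. Another 3 (Ifit3b, Oas1a and Xaf1) had the reverse. Across the 33 members, batch 1 and batch 2 differences correlated with Pearson r 0.106 and Spearman rho 0.155, a description only, since all members come from the same libraries.

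**Figure D4:**
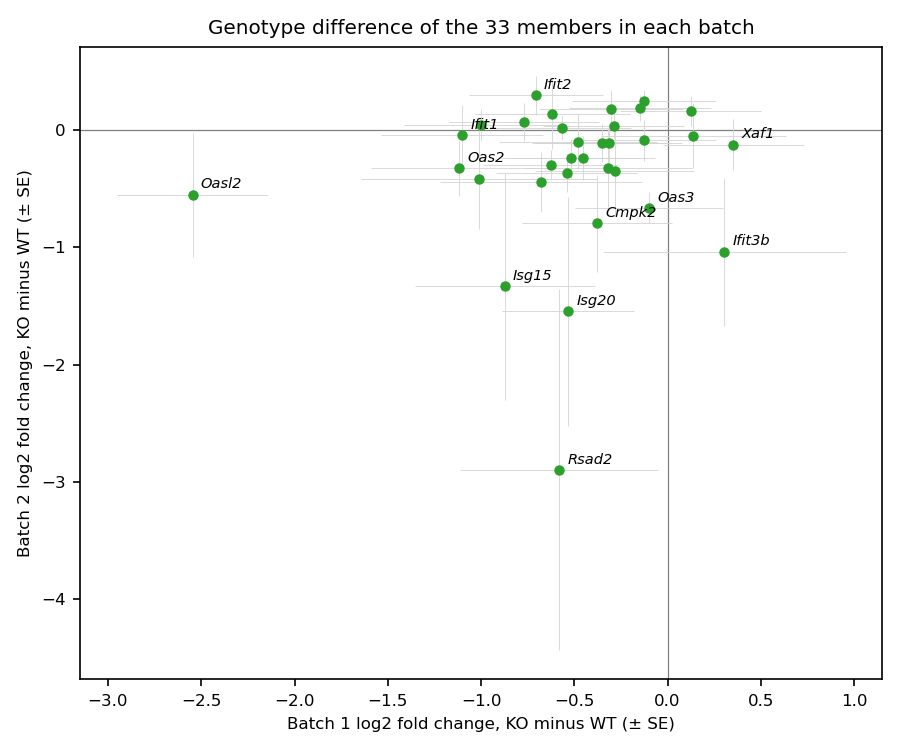
Log2 fold change of the knockout against wildtype for each of the 33 members in batch 1 (x axis) and batch 2 (y axis), with SE bars. Oasl2 has the lowest batch 1 value (-2.55), Rsad2 the lowest batch 2 value (-2.90) with a wide bar, and 20 members lie below 0 on both axes.

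Leaving out single libraries showed how far the lean within a batch depended on WT1 (batch 1) or WT3 (batch 2). Without WT1 the member median in batch 1 was 0.21 and 9 of 33 members were negative, against -0.48 and 29. Without WT2 it was -0.89 with 32 negative. Without KO3, the library with Y-linked transcripts and the largest receptor background, it was -0.28 with 25 negative. Oasl2 was then called, beside 35 of all 22292 genes. In batch 2 the median was 0.07 with 10 negative when WT3 was left out. It was -0.37 with 26 negative when WT4 was left out. Where 1 wildtype library remained in a batch, its spread was taken from the knockout libraries, so counts of called members are not given for such fits. In the joint fit the median without WT3 alone was -0.32 with 30 of 33 negative, against -0.04 for all genes. With WT1 and WT3 both left out of the joint fit, a choice made after the values were seen, the median was 0.04 with 11 of 33 negative, against -0.06 for all genes.

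**Figure D5:**
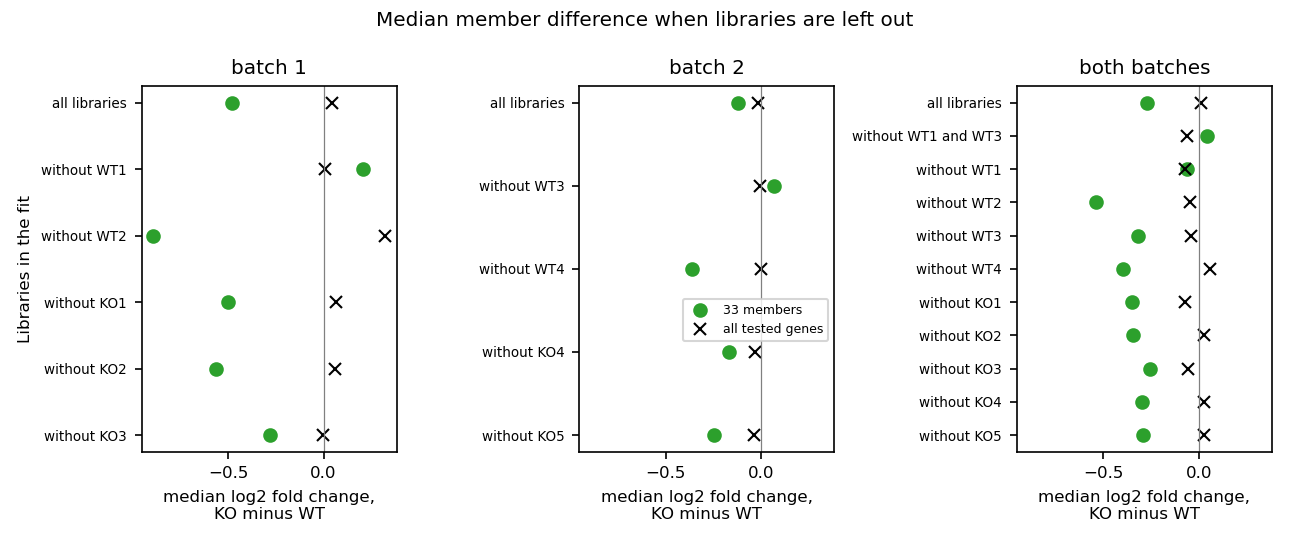
Median log2 fold change (knockout minus wildtype) of the 33 members (circles) and of all tested genes (crosses) with all libraries and with libraries left out, in each batch and in the joint fit. The member median crosses 0 without WT1 in batch 1 (0.21), without WT3 in batch 2 (0.07) and without both in the joint fit (0.04).

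Some members share sequence, which limits how reads could be assigned. Of all 100-base windows in the protein-coding transcripts of a member (GENCODE M21, build GRCm38), 40.9% for Oas1a also occurred in Oas1g, 31.7% for Ifit3 in Ifit3b, 27.4% for Ifit3b in Ifit3 and 20.9% for Herc6 in Gm45193. For 22 of 33 members, Oasl2, Isg15, Isg20 and Rsad2 included, no window was shared with another gene. Ifit3 and Ifit3b, which encode near-identical proteins, are therefore uncertain as single genes. In batch 1 Ifit3 had 14.9 CPM in WT1, 9.74 in WT2, and 6.65, 14.6 and 13.8 CPM in KO1, KO2 and KO3, and it had 6.31 and 6.04 against 6.39 and 3.31 CPM in batch 2. Ifit3b had 2.66 and 3.25 against 3.33, 3.21 and 5.92 CPM in batch 1, and 1.59 and 1.69 against 1.13 and 0.458 CPM in batch 2. By CPM the genotypes overlapped for Ifit3 in both batches and for Ifit3b in batch 1.

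The rest of the pathway gave 0 calls in any fit. Of the 11 interferon genes (Ifnb1, 8 Ifna genes, Ifnk and Ifne) 0 had enough counts to be tested. All 11 had 0 counts in each batch 2 library, where 3 counts correspond to 0.043 to 0.0666 CPM, and they reached at most 8 counts (1.58 CPM) in batch 1. Ifnb1, which encodes interferon beta, had 0.0885 and 1.42 CPM in WT1 and WT2, and 0.133, 0.115 and 0.789 CPM in KO1, KO2 and KO3, or 1 to 7 counts. The receptor chain Ifnar1 had 165 CPM in WT1, 146 in WT2, and 160, 170 and 131 CPM in KO1, KO2 and KO3, and in batch 2 it had 159 and 160 against 172 and 177 CPM. Its log2 fold changes were -0.15 ± 0.37 and 0.14 ± 0.10, and those of Ifnar2 were -0.07 ± 0.38 and 0.16 ± 0.13. Stat2, a transcription factor of the pathway, had -0.11 ± 0.37 and -0.18 ± 0.10. All 3 had an edgeR adjusted p of at least 0.719 in each batch.

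Of 45 other interferon-induced genes outside the member list 44 were tested. In batch 1 33 of them were negative, beside 46.2% of all genes, with a median of -0.25, and 3 had an unadjusted p under 0.05, beside 1.97% of all genes. In batch 2 19 were negative, beside 52.2% of all genes, with a median of 0.06, and 5 had an unadjusted p under 0.05, beside 7.77% of all genes. The interferon gamma list holds 10 genes, such as Irf1 and Gbp2, that respond strongly to the type II interferon. In batch 1 9 of 10 were positive with a median of 0.48. Cd274, at -0.11, was the exception, while 46.2% of all genes were negative and their median was 0.04. KO2 was the highest batch 1 library for every gene of this list but Cxcl9. Gbp2, for example, had 69.8 and 34.7 CPM in WT1 and WT2, and 78.9, 120 and 22.7 CPM in KO1, KO2 and KO3. How far the lean rested on KO2 was not tested. By edgeR 0 were called and 1, Ciita, had an unadjusted p under 0.05, beside 1.97% of all genes. In batch 2 6 of 10 were positive with a median of 0.05, and 52.2% of all genes were negative. In batch 1 Irf1 had 172 CPM in WT1, 140 in WT2, and 180, 246 and 112 CPM in KO1, KO2 and KO3, with a log2 fold change of 0.09 ± 0.39, and the groups overlapped.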

How the data were processed

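Values are estimated counts, not whole numbers, in a gene table deposited by the authors. The submitters' processing notes name Salmon 1.2.0 and R 4.0.3, with GRCm39 as genome build, and give no roles. For annotation release, strand setting, gene summarising and any length scaling, the answer is not given in the sources used here. Counts were rounded. Knockout was compared with wildtype within each batch, over both batches with batch as a term, and for the interaction, by edgeR 4.0.16 (R 4.3.3; quasi-likelihood test, robust, TMM, default filter of 10 counts and 15 in total), with Benjamini-Hochberg adjustment over all tested genes at 0.05. All 33 members were tested in every fit. Alternatives used DESeq2 1.42.0 and limma 3.58.1. The steps were also run on simulated counts with the same spread for every gene and library. That run held no outlying library, so it does not speak to libraries such as WT3. CPM are counts divided by the library total, so precision follows depth, and intervals are not given. Library ratios on the model's scale used TMM-scaled CPM plus 0.5.

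Members and lists were chosen with earlier results of these data known. Full statistics are given for called members and the 4 with the smallest p in each of 3 fits, and sample values also for Isg15, Irf7, Irf9, Ifit3, Ifit3b and genes named for their values. No label says that libraries come from separate animals, so p-values measure the spread between these libraries, which may be technical. No libraries of a group agreed within sampling noise (chi-square divided by its degrees of freedom, 4.27 to 141). No gene coordinates of the files' build are given, and sequences and windows come from build GRCm38. Trac, a listed marker, was not matched. 1 gene of the pathway lists is not reported here.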

Additional observations from a re-analysis of the deposited data

Results flagged for a closer look

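In 66 groups of libraries (each member in 4 wildtype or 5 knockout libraries, both batches pooled), 7 values lay far from the others by a gap test. That test marks about 1 in 20 groups drawn from a single normal population. These groups pool unlike batches and the members share libraries, so the 7 values cannot be set against that rate. WT3 was high for Rsad2 (354 CPM, next highest wildtype value 25.8), Isg20 (178 CPM, next 38.8) and Isg15 (58.4 CPM, next 10.6). KO3 was low for Trim30a (54.2 CPM, next lowest knockout value 99.7), Irf9 (38.5 CPM, next 68.0) and Ifih1 (30.6 CPM, next 41.8). KO5 was high for Oas1a (13.5 CPM, next 9.18). Of the 7 values 6 thus came from 2 libraries. No member differed between the batches in its genotype difference by the interaction test.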

How the results depend on the processing

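The member median kept its sign under each other scaling, filter and test and without the batch term, in each batch and in the joint fit; it turned positive without WT1 in batch 1, without WT3 in batch 2 and without both in the joint fit. Called members numbered 0 in batch 1 with upper-quartile scaling (6 of 24600 genes called) and 0 with the stricter filter (3 of 16207). In batch 2 the DESeq2 Wald test called 1 member, beside 329 of 15910 genes. With KO1, KO2 or KO3 left out of batch 1, Oasl2 alone of the members was called, beside 33 to 35 genes of 22292 to 23057. Fits that left 1 library of a genotype in a batch are not counted here. The cause of these changes was not tested.

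Some log2 fold changes changed sign. Oas3 in batch 1 was 0.026 with upper-quartile scaling, 0.0045 with the stricter filter and 0.093 with limma-voom, and Ifit1 in batch 2 was 0.0075 with upper-quartile scaling. In the joint fit without WT1 and WT3, chosen after seeing the data, Ifit1 was 0.11, Ifi27l2a 0.042, Oas2 0.030 and Oas3 0.10. With single libraries left out, batch 1 values ran from -1.73 to 0.0029 for Ifit1, -1.63 to 0.093 for Ifi27l2a, -1.78 to 0.096 for Oas2, -0.74 to 1.03 for Oas3, -0.50 to 0.34 for Parp14, -1.13 to 0.084 for Bst2 and -1.05 to 0.21 for Irf7. In batch 2 they ran from -1.13 to 0.42 for Oasl2, -0.32 to 0.30 for Ifit1, -0.081 to 0.17 for Ifi27l2a, -0.63 to 0.045 for Oas2, -2.12 to 0.49 for Isg15 and -2.31 to 0.13 for Isg20. In the joint fit they ran from -0.74 to 0.025 for Ifi27l2a and -0.10 to 0.25 for Parp14.

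The labels number replicates alike in both genotypes. Deviations of same-numbered libraries from their group means within a batch correlated at 0.417, -0.443, -0.115 and -0.111 for numbers 1 to 4. With 2 wildtype libraries in each batch, the deviations of a wildtype pair mirror each other. Number 3 joins WT3 of batch 2 with KO3 of batch 1. The correlations therefore cannot decide on pairing, and the numbers were not taken as pairs. With the replicate number as a block the member median was -0.17 in batch 1 and -0.14 in the joint fit, with 1 and 0 called members, and Oas3 and Parp14 in batch 1 were 0.34 and 0.24. The shallow batch 1 libraries, where 3 counts equal up to 0.609 CPM, limit the low members such as Ifit3b and Ifi44.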
